A study of Mus musculus with 6 samples.

Results

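Transcripts of the cytokines *Il17a*, *Il17f* and *Il22* and of the receptor subunits *Il17ra* and *Il17rc* were followed in CD45+ cells sorted from spinal cords during adoptive transfer experimental autoimmune encephalomyelitis (EAE), a mouse model of multiple sclerosis. The 5 genes were chosen by name and are 5 of the 19449 genes in the single-cell table. The cells of 4 spinal cords were pooled for each of 4 libraries, from wild-type C57BL/6 recipients, either young (8 to 12 weeks of age) or middle-aged (40 to 44 weeks), on day 6 or day 10 posttransfer. All recipients, young and middle-aged alike, had been given CD4+ T cells of young donors that were primed against a myelin peptide (MOG) and cultured with the peptide, IL-23, IL-1α and antibody against IFN-γ. This culture favours Th17 cells, so every library holds cells pushed toward IL-17 before transfer, and donor and host T cells cannot be told apart in the counts. In addition, 2 bulk libraries, 1 per age, hold microglia of naive mice, which received no T cells.

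With 1 library per age and day there was no replicate check and no test, and every difference below compares 2 libraries. The libraries held 8315 to 10026 cells, with a median depth of 4704.5 to 6196 unique molecular identifiers per cell (UMIs, barcodes by which copies of 1 captured transcript are counted once). The libraries shared 154 cell barcodes, 13 to 36 for each pair of libraries, and 7 of these cells were T cells with *Il17a*. Cells are described by the 16 clusters of the deposited table, of which cluster 2 was T cell-like by its marker genes. The summed level of 10 T cell markers there ran from 6118 to 6573 counts per 1000000 UMIs of the cluster (CPM), with none at 0 in any library. On day 6 there were 1307 T cell-like cells from young and 1137 from middle-aged recipients, and on day 10 there were 1923 and 2463. Ratios are log2 ratios of CPM with an exact binomial 95% interval in brackets. All intervals cover counting error only, not differences between mice, sorts or libraries. Those of CPM ratios take UMIs as independent, although many UMIs of a gene can lie in few cells.

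IL-17A and IL-17F are secreted as homodimers or as a heterodimer by Th17 cells, by gamma delta T cells and by innate lymphocytes. Both bind a receptor of the subunits IL-17RA and IL-17RC on stromal, epithelial, glial and myeloid cells, where the adaptor Act1 (*Traf3ip2*) leads to chemokines that draw in neutrophils. IL-22 belongs to the IL-10 family and acts through IL-22RA1 and IL-10RB, mainly on epithelial and other nonhematopoietic cells. IL-23 and IL-1 sustain the cells that make these cytokines.

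*Il17a* and *Il17f* are neighbours on chromosome 1, and the stretches just upstream of their start sites are shown because the pair is described together below. By the GENCODE vM21 annotation of mm10, *Il17a* lies on the plus strand at 20730905-20734496 and *Il17f* on the minus strand at 20777146-20790617, with 42649 bases between them. *Il22* lies at 118204942-118210047 of chromosome 10, *Il17ra* at 120463247-120487559 of chromosome 6 and *Il17rc* at 113471427-113483140 of chromosome 6, all on the plus strand. Promoter sequence was read from RefSeq (GRCm38.p6), where 4 of the 5 genes matched. The windows are noncoding sequence 5′ of the RefSeq start site, chr1:20730655-20730904 on the plus strand for *Il17a* and chr1:20784271-20784520 on the minus strand for *Il17f*, where another annotated *Il17f* transcript starts further upstream. Capitals mark the motifs described after the sequences.
Il17a: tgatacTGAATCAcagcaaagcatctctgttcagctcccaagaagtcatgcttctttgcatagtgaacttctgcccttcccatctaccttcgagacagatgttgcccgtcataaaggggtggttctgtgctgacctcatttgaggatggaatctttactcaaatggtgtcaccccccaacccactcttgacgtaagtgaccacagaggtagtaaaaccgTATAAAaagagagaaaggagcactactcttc
Il17f: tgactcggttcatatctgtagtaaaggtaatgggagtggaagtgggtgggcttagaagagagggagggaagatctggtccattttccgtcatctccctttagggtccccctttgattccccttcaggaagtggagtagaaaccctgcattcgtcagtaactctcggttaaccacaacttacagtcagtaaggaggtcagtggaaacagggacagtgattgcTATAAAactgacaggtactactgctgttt
Both windows hold a TATA box (TATAAA, gene strand), at -31 to -26 in *Il17a* and -29 to -24 in *Il17f*, a motif found in 7.59% of 32851 windows of the same length. The AP-1 motif TGANTCA, found in 6.75% of windows on either strand, was matched in *Il17a* at -244 to -238 and not in the *Il17f* window. A match is a description of the letters only.

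The cytokine transcripts lay mostly in the T cell-like cluster, and in few of its cells. Over all 4 libraries, *Il17a* had 19350 UMIs in 1070 cells with 80.7% in cluster 2, *Il17f* had 1803 UMIs in 158 cells with 73.3%, and *Il22* had 2432 UMIs in 124 cells with 85.3%. The receptor gene *Il17ra* was spread otherwise, with 15743 UMIs in 10325 cells and at most 13 in any cell. Only 8.73% of its UMIs were in the T cell-like cluster. *Il17rc* had 89 UMIs in 89 cells, of which 57 were in that cluster. *Il17a* is among the leading genes of cluster 2, so its excess there is a description of the cluster. As a background for free RNA, 9 of 1360 B cell-like cells (0.66%) held an *Il17a* UMI, 2 (0.15%) an *Il22* UMI and 0 an *Il17f* UMI, which allows a share of up to 0.221%, at a median depth of 2697 UMIs. For *Il17a* these were 0 of 295 young and 0 of 184 middle-aged cells on day 6, which allows up to 1.02% and 1.63%. On day 10 they were 5 of 543 (0.92%) and 4 of 338 (1.18%).

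*Il17a* in the T cell-like cluster was lowest in young mice on day 6 and highest in middle-aged mice on the same day. Its level was 115 CPM (814 UMIs) in young and 702 CPM (4819 UMIs) in middle-aged mice on day 6, and 299.9 CPM (4156) and 377 CPM (5832) on day 10. The ratio of middle-aged over young was 2.61 [2.50, 2.72] on day 6 and 0.33 [0.27, 0.39] on day 10. The share of T cells with an *Il17a* UMI followed another order, at 3.29%, 11%, 10.1% and 14.3% in the same sequence of libraries, and the largest share was in middle-aged mice on day 10. After each cell was thinned to 2000 UMIs, which left out 32 to 106 T cells per library, these shares were 2.51%, 8.49%, 7.19% and 10.9%. In the same sequence, the mean per positive cell was 18.9, 38.6, 21.3 and 16.6 UMIs, whereas the median was 5 or 6 in every library. The high level in middle-aged mice on day 6 thus went with both a 3.34-fold larger share of positive cells and a higher mean per positive cell. On day 10 the share was 1.41-fold larger and the mean per cell was lower than in young mice.

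*Il17f* stood highest in middle-aged mice on day 6 and lowest in middle-aged mice on day 10. In the T cell-like cluster its level on day 6 was 19.1 CPM (135 UMIs) in young recipients against 126 CPM (866) in middle-aged ones, and 16.2 CPM (224) and 6.28 CPM (97) on day 10. The ratio of middle-aged over young was 2.73 [2.46, 3.0] on day 6 and -1.36 [-1.72, -1.01] on day 10. The share of T cells with an *Il17f* UMI was 1.22% and 3.43% on day 6, and 1.40% and 1.30% on day 10. On day 10 the shares in the 2 ages were within counting error, and the lower level in middle-aged mice went with fewer UMIs per positive cell, a mean of 3.03 against 8.30 in young mice. In middle-aged mice on day 6 this mean was 22.2, and in young mice it was 8.44.

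*Il22* was higher in middle-aged than in young mice on both days and lower on day 10 than on day 6 in both ages. In the T cell-like cluster the level on day 6 was 21.0 CPM (149 UMIs) in young recipients against 166 CPM (1142) in middle-aged ones, and 9.31 CPM (129) and 42.3 CPM (654) on day 10. The ratio of middle-aged over young was 2.98 [2.74, 3.24] on day 6 and 2.18 [1.91, 2.47] on day 10. These levels rested on 10, 23, 11 and 28 positive cells, which were 0.77%, 2.02%, 0.57% and 1.14% of T cells. The ratio of shares on day 10, 0.99 on the log2 scale, had an interval that spans 0 [-0.06, 2.15]. Reads of *Il22* are uncertain against its near copy *Iltifb*, since 97.4% of 1110 aligned transcript bases were identical. *Iltifb* itself had 6 UMIs in the table, none in T cells.

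**Figure D1:**
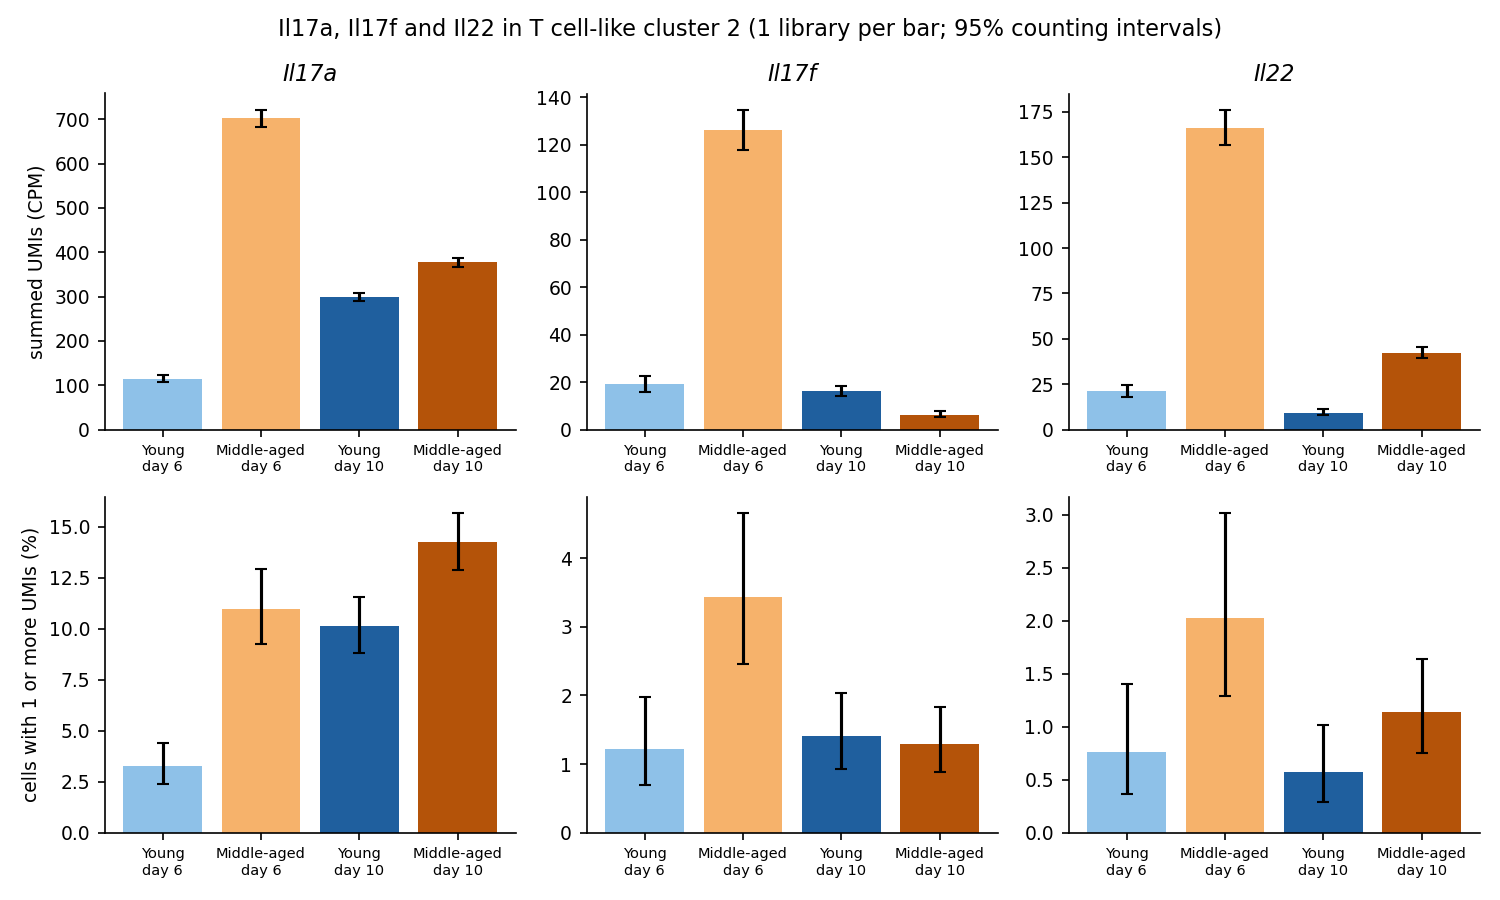
Level in CPM (upper row) and percent of cells with a UMI (lower row) of Il17a, Il17f and Il22 in the T cell-like cluster, 1 bar per library, with 95% counting intervals as error bars. Middle-aged mice on day 6 have the tallest level bar for all 3 genes (702, 126 and 166 CPM), whereas the share of cells with Il17a is largest in middle-aged mice on day 10 (14.3%).

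All 5 genes had at least 10 UMIs in each comparison of 2 libraries of T cells. On day 6, 3 of 5 were at least 2-fold higher in middle-aged mice and 0 were lower, beside 2.93% higher and 3.39% lower of the 11452 genes with this many UMIs. On day 10, *Il22* was at least 2-fold higher and *Il17f* at least 2-fold lower (1 of 5 each), beside 2.87% higher and 1.68% lower of 12566 genes. The *Il17f* ratio did not reach 2-fold with the mean of per-cell CPM (-0.79), without the 10 leading cells of each library (-0.39) or over all cells (-0.05). From day 6 to day 10 in young mice, *Il17a* was higher at 1.38 [1.27, 1.49] and *Il22* lower at -1.18 [-1.53, -0.83], beside 5.98% of 12086 genes at least 2-fold higher and 6.54% lower. The *Il22* ratio in young mice rested on 10 and 11 cells and was -0.62 with the mean of per-cell CPM. Over the same days in middle-aged mice, *Il17f* was lower at -4.33 [-4.65, -4.02] and *Il22* at -1.97 [-2.12, -1.83], beside 6.59% of 12174 genes at least 2-fold higher and 4.2% lower. *Il17a* was at -0.90 [-0.95, -0.84] there and was at least 2-fold different in neither direction. The day comparisons share libraries with the age comparisons and are not independent of them.

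A few cells carried most of the *Il17a* UMIs on day 6, and on day 10 they were spread over more cells. The T cell with the most *Il17a* UMIs held 285 (35.0%) and 1509 (31.3%) of the UMIs on day 6 in young and middle-aged mice. On day 10 it held 248 (5.97%) and 143 (2.45%). The 10 leading cells together held 79.6% and 66.1% on day 6, and 34.2% and 18.5% on day 10. It took 3, 5, 20 and 38 cells to hold 50% of the *Il17a* UMIs in the same order of libraries. Cells with at least 10 *Il17a* UMIs numbered 16, 53, 82 and 138, and cells with at least 100 numbered 1, 11, 9 and 5. Middle-aged mice on day 6 thus had the most cells of very high *Il17a*, and middle-aged mice on day 10 had the most cells of moderate *Il17a*.

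The size of the contrast between days, but not its direction, depended on 1 cell for *Il17a* in middle-aged mice. Without the leading T cell of each library, the ratio of day 10 over day 6 was -0.39 [-0.45, -0.33] in middle-aged and 1.92 [1.79, 2.05] in young mice. *Il22* was concentrated in few cells on both days. The leading cell held 48 (32.2%) and 315 (27.6%) of the *Il22* UMIs on day 6 and 57 (44.2%) and 202 (30.9%) on day 10, and 2 or 3 cells held 50% in every library. The 10 leading cells held between 86.9% and 100% of them. For *Il17f* the leading cell held 53 and 145 UMIs on day 6 and 52 and 20 on day 10, and 2, 5, 3 and 6 cells held 50% in that order.

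**Figure D2:**
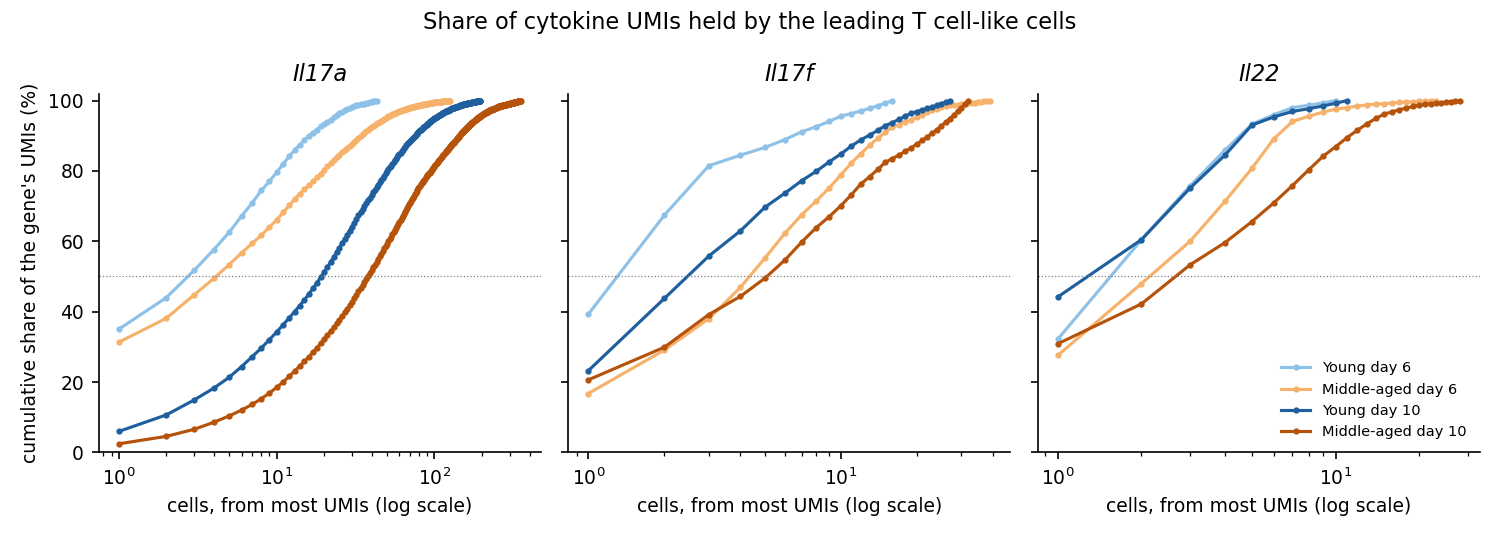
Cumulative percent of the UMIs of Il17a, Il17f and Il22 in the T cell-like cluster against the number of cells, ranked by their UMIs of that gene, 1 line per library. The Il17a lines of day 6 climb to 79.6% and 66.1% by the 10 leading cells, whereas those of day 10 reach 34.2% and 18.5%.

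The leading cells differed in which of the cytokines they held together. In the middle-aged library of day 6, the cell with 1509 *Il17a* UMIs had 18698 UMIs in all, so that *Il17a* was 8.07% of its transcripts, with 41 UMIs of 6 T cell receptor and CD3 genes and no *Il17f* or *Il22*. None of the 10 leading *Il17a* cells of any library held *Cd8a*. The cell that led for *Il17a* also led for *Il17f* in young mice, with 285 and 53 UMIs on day 6 and 248 and 52 on day 10. The cell that led for *Il22* held no *Il17a* in 3 of 4 libraries. The exception was middle-aged day 10, where that cell held 202 *Il22* and 105 *Il17a* UMIs.

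Most T cells with *Il17f* also held *Il17a*, and *Il22* was found in cells both with and without it. Of T cells with any of the 3 cytokines there were 56 young and 143 middle-aged on day 6, and 211 and 368 on day 10. Most held *Il17a* alone, at 34, 90, 173 and 310 cells. *Il17a* and *Il17f* without *Il22* were found in 5, 22, 20 and 21 cells. *Il17a* and *Il22* without *Il17f* were found in 1, 4, 2 and 19 cells, and 13 cells held all 3 genes, of which 9 were middle-aged cells of day 6. *Il22* stood alone in 5, 10, 9 and 7 cells, and *Il17f* alone in 7, 8, 7 and 9.

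Most *Il17f* UMIs lay in *Il17a* cells in every library, whereas the share of *Il22* UMIs there varied. Cells with *Il17a* held 88.1%, 98.2%, 87.9% and 83.5% of the *Il17f* UMIs of T cells in the 4 libraries. They held 26.8%, 44.7%, 10.1% and 80.1% of the *Il22* UMIs, so the overlap of *Il22* with *Il17a* was highest in middle-aged mice on day 10. Over the 4 libraries, *Il17a* was found in 81 of 114 T cells with *Il17f* (71.1%) and in 39 of 72 with *Il22* (54.2%). Among 714 T cells with *Il17a*, 11.3% held *Il17f*, against 0.54% of the other T cells. After thinning to 2000 UMIs this was 8.70% against 0.38%, and for *Il22* 4.64% against 0.43%. Detection of 2 sparse genes in the same cell rises with depth, and the thinned values hold depth equal.

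**Figure D3:**
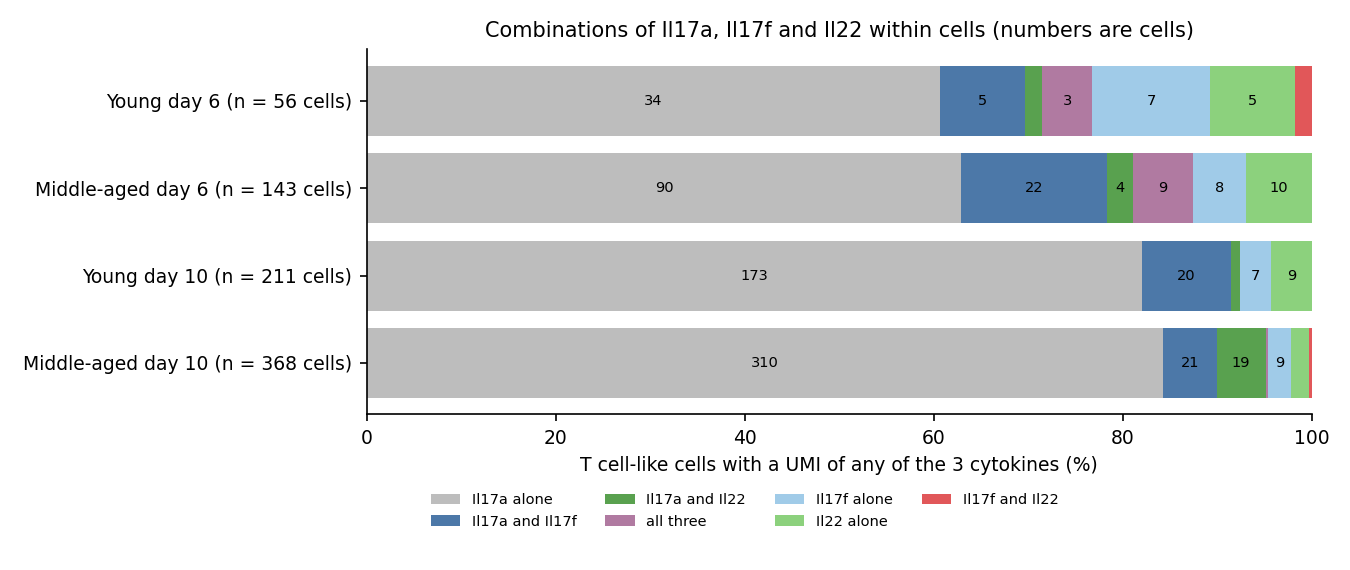
Percent of the T cells with any of Il17a, Il17f and Il22 (at least 1 UMI) that hold each combination, stacked, 1 bar per library. The numbers printed on the larger parts are cells. Cells with Il17a alone make up the largest part of every bar (34, 90, 173 and 310 cells), and cells with Il17a and Il22 are most numerous in middle-aged mice on day 10.

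Other genes of T helper cells were compared between T cells with *Il17a* and the other T cells, after thinning to 2000 UMIs and then as deposited. The receptor gene *Il1r1*, whose product binds the IL-1 used in the donor culture, was found in 14.7% against 3.22% (as deposited, 36.3% against 7.91%). *Il23r*, a subunit of the IL-23 receptor, was found in 1.55% against 0.51% (as deposited, 9.38% against 1.42%). *Il17re*, a receptor subunit for IL-17C, was found in 10.8% against 3.04%, the chemokine receptor *Ccr6* in 7.35% against 1.20%, the cytokine *Il21* in 5.42% against 0.71% and *Csf2*, which encodes GM-CSF, in 17.8% against 8.21%. Lower thinned shares were seen for *Ifng* (6.77% against 19.3%), the regulatory T cell factor *Foxp3* (0.19% against 1.69%), *Cd8a* (0.58% against 5.21%) and *Ahr*, a factor for IL-22 (2.90% against 4.89%). *Il17ra* was found in 6.19% against 7.18% thinned and in 18.6% against 17.2% as deposited.

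The 10 genes with the highest thinned ratio of shares, in 517 T cells with *Il17a* against 6088 without and higher in all 4 libraries, were led by *Il17f* at 23.0. *Trdv4* (17.9), *Blk* (13.1), *Cd163l1* (9.03) and *Tcrg-C1* (6.0) among them are genes of gamma delta T cells. *Il22* (10.9) was in the same 10. Genes were also ranked by the Pearson correlation of log2(CPM + 1) over 54 profiles of cluster and library, which share libraries and depths. The nearest to *Il17a* were *Tnfsf11*, the gene of RANKL (0.88), and *Olfr60* (0.86), and the nearest to *Il17f* were *Il2* (0.79) and *Il22* (0.78). In sparse counts such values describe which clusters hold the gene.

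Cells with gamma delta receptor transcripts had *Il17a* in a larger share. Cells with alpha chain transcripts alone were most of the T cells and held most of the UMIs. T cells with the delta constant gene *Trdc* and no alpha constant gene *Trac* numbered 35 and 21 on day 6 and 42 and 55 on day 10. *Il17a* was found in 20.0%, 23.8%, 33.3% and 38.2% of them, at a median depth of 3401 to 4027 UMIs. Among cells with *Trac* and no *Trdc* it was found in 2.86%, 11.4%, 10.0% and 14.4%, at a median depth of 4887 to 6549. The intervals of the 2 kinds of cell overlapped in middle-aged mice on day 6, with 5 positive *Trdc* cells, and not in the other libraries. Cells with *Trac* and no *Trdc* were 1049 of 1307, 955 of 1137, 1683 of 1923 and 2073 of 2463 T cells. They held 80.8%, 94.5%, 88.3% and 81.7% of the *Il17a* UMIs of T cells. Those with *Trdc* and no *Trac* held 4.67%, 1.87%, 9.10% and 8.21%. Cells with both genes held 14.1%, 2.84%, 1.78% and 8.42%. These cells numbered 27 and 11 on day 6 and 27 and 43 on day 10. *Il17a* was found in 18.5%, 36.4%, 22.2% and 41.9% of them. The excess of *Il17a* in middle-aged mice on day 6 was present in cells with *Trac* and no *Trdc*, at 747 CPM, with 110 CPM in the young library. It was also present in the other kinds of cell, each with at most 7 positive cells per library. The levels were 965 against 249 CPM with *Trdc* and no *Trac*, 1507 against 699 CPM with both and 63.8 against 3.75 CPM with neither. For *Il22* in middle-aged mice on day 6, 1 cell with *Trdc* alone held 233 of the 1142 UMIs, and cells with neither gene held 38.9%.

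**Figure D4:**
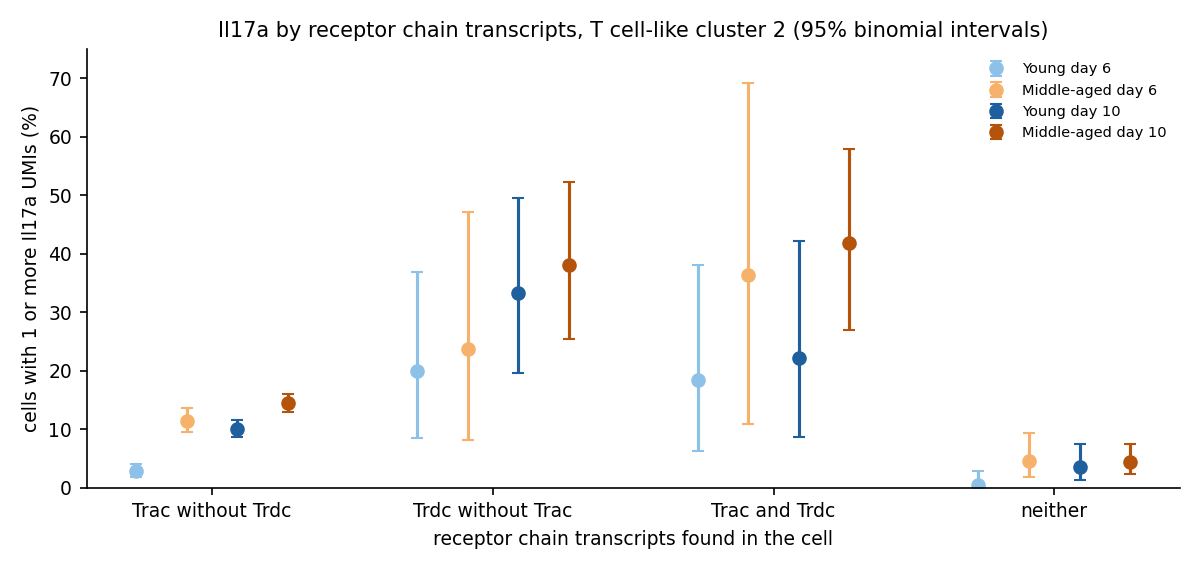
Percent of T cells with an Il17a UMI in each library, with 95% binomial intervals (Clopper-Pearson). Cells are split into those with Trac and no Trdc, with Trdc and no Trac, with both and with neither. The cells with Trdc and no Trac sit at 20.0% to 38.2% and those with Trac and no Trdc at 2.86% to 14.4%. The intervals of the cells with Trdc and no Trac are wide because they number only 21 to 55.

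A part of the cytokine UMIs lay outside the T cell-like cluster. Outside cluster 2 lay 30.7%, 13.5%, 11.3% and 26.4% of the *Il17a* UMIs, in young and middle-aged mice of day 6 and then of day 10. For *Il17f* the shares were 56.9%, 17.1%, 3.45% and 54.5%, and for *Il22* 23.2%, 17.6%, 21.3% and 4.94%. Outside cluster 2, 74 cells held at least 10 *Il17a* UMIs, and all 74 held UMIs of the 6 T cell receptor and CD3 genes. The unnamed cluster 11, whose leading genes include the basophil gene *Mcpt8*, the granule gene *Mpo* and the cell division gene *Nusap1*, held 29 of the 74 and monocyte/macrophage-like cluster 5 held 21. In cluster 5 these 21 cells had a median of 31 T cell UMIs and 132 UMIs of the macrophage gene *Lyz2*, at a depth of 17110 UMIs, whereas cells there without *Il17a* had medians of 0, 170 and 9132.5. Elsewhere T cell transcripts were common without *Il17a* too, in 72.4% of such cells of cluster 11 (median 40.5 UMIs, against 59 in the 29 cells), 99.2% of cluster 13 and 80.3% of NK-like cluster 9. These 3 clusters held 40 of the 74 cells. For *Il17f*, 2 dendritic cell-like cells held 171 UMIs and 4 cells of cluster 5 held 227, with medians of 20 and 19 T cell UMIs. No doublet caller was run, and the part of cell pairs in these values was not tested.

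Compared over all cells of a library, the age ratios differed from those of T cells. The ratio of middle-aged over young *Il17f* was 1.66 [1.48, 1.85] on day 6 and -0.05 [-0.32, 0.23] on day 10 over all cells, against 2.73 and -1.36 in the T cell-like cluster. For *Il17a* the ratios over all cells were 2.17 [2.08, 2.26] and 0.83 [0.78, 0.89].

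*Il17ra*, the subunit shared by the receptors of several IL-17 cytokines, had its highest CPM in a neutrophil-like cluster. Among the 13 clusters with at least 30 cells in each library, the median over the 4 libraries was 257 CPM in neutrophil-like cluster 3 (225 to 297 CPM). The unnamed cluster 0, with *Il1f9* and *Il23a* among its leading genes, came next at 182 CPM (117 to 193) and did not overlap it, followed by neutrophil-like cluster 6 at 169 CPM (137 to 183) and unnamed cluster 13 at 115 CPM (56.1 to 137). Monocyte/macrophage-like cluster 5 had 78.9 CPM (73.4 to 120), microglia-like cluster 10 had 67.9 CPM (50.6 to 105), NK-like cluster 9 had 51.0 CPM (45.5 to 81.9) and B cell-like cluster 4 had 44.4 CPM (34.9 to 57.1). From there the medians ran through unnamed cluster 8 (42.7), monocyte/macrophage-like cluster 1 (39.1), unnamed cluster 11 (35.3) and T cell-like cluster 2 (32.1) down to dendritic cell-like cluster 7 (27.1). Past the first place, the ranges of each pair of neighbours in this order overlapped. The share of cells with an *Il17ra* UMI, which rises with depth, followed another order. It was 65.6% in cluster 6, 51.5% in cluster 13 and 51.0% in cluster 3. Cluster 5 had 46.3%, cluster 10 had 41.1%, cluster 11 had 32.9% and cluster 0 had 28.6%. The median depth of these clusters was 8134, 7896.5, 2935, 9212, 8214.5, 14026 and 2269 UMIs per cell in that sequence. The 5 genes nearest to *Il17ra* over the 54 profiles were *Tmcc1* (0.91), *Map3k3* (0.89), *Tut7*, *Usp32* and *Lyst*.

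**Figure D5:**
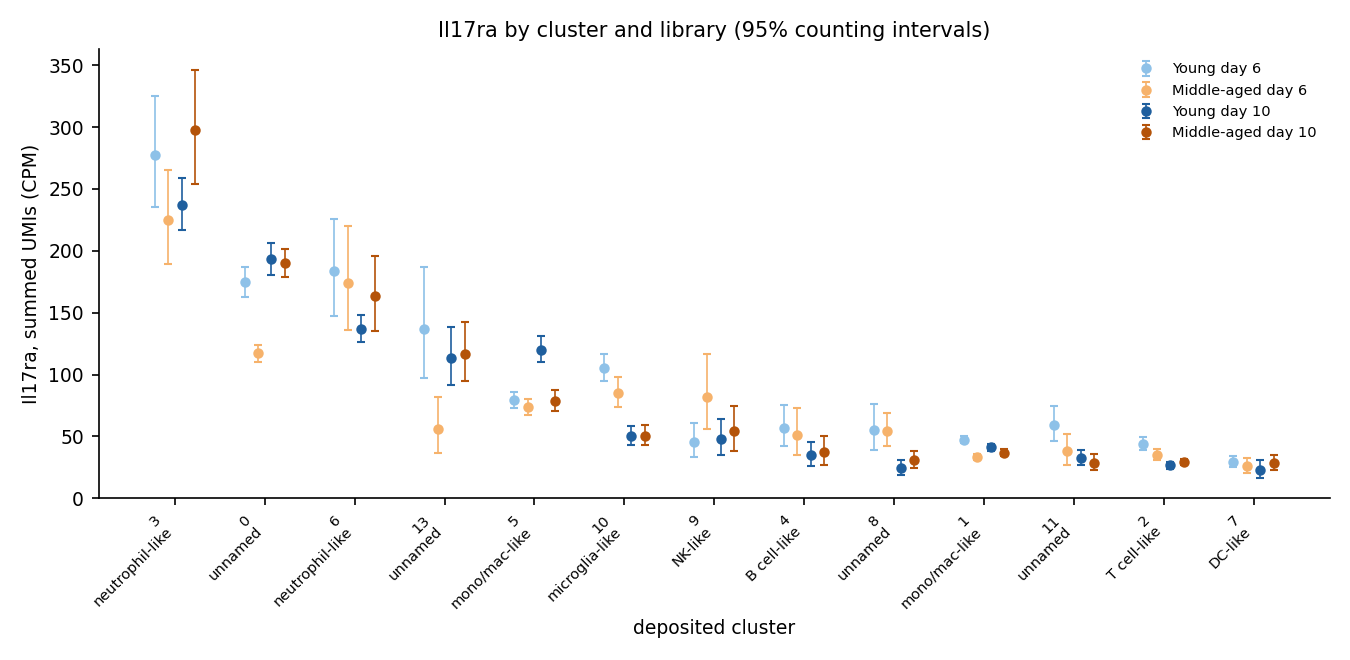
Level of Il17ra in CPM in 13 clusters, ordered by the median over libraries, with 1 point per library. Neutrophil-like cluster 3 lies at 225 to 297 CPM above all other clusters, and T cell-like cluster 2 and dendritic cell-like cluster 7 lie lowest, at medians of 32.1 and 27.1 CPM.

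In the large clusters *Il17ra* stayed within 2-fold between the ages, and in some small ones it did not. In T cells it had 44.2 and 35.0 CPM on day 6 and 26.6 and 29.3 CPM on day 10, young first, a ratio of middle-aged over young of -0.34 and 0.14. In cluster 0, the largest source of its UMIs, the young library of day 6 had 175 CPM and the middle-aged 117 CPM, a ratio of -0.58 [-0.71, -0.45], and -0.02 on day 10. In monocyte/macrophage-like cluster 1 the ratios were -0.51 [-0.64, -0.38] and -0.16, and in cluster 5 they were -0.11 and -0.61 [-0.81, -0.41]. Neutrophil-like cluster 3 had -0.30 and 0.33 [0.06, 0.58]. Larger ratios rested on fewer UMIs, at -1.29 [-2.06, -0.54] in cluster 13 on day 6 (26 and 39 UMIs), 0.85 [0.14, 1.54] in NK-like cluster 9 on day 6 (31 and 44) and -1.23 [-2.57, -0.14] in unnamed cluster 12 on day 10 (7 and 125), middle-aged first. None of clusters 0, 1, 2 and 10 had an *Il17ra* ratio past 2-fold on either day, beside 10.1% and 5.03% of genes past 2-fold in cluster 0 on days 6 and 10, 9.26% and 4.57% in cluster 1, and 8.95% and 4.89% in cluster 10. Over all 16 clusters the interval lay below 0 in 6 and above 0 in 1 on day 6, and below 0 in 3 and above 0 in 1 on day 10.

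Microglia carried *Il17ra* in both assays. In microglia-like cluster 10 it had 105 and 85.2 CPM on day 6 and 50.6 and 50.7 CPM on day 10, young first. The ratio of the ages was -0.30 [-0.56, -0.05] on day 6 and close to 0 on day 10, so the libraries of day 6 were higher in both ages. In bulk naive microglia, counted from 79373420 and 76293436 reads, *Il17ra* had 19897 and 21965 counts (251 and 288 CPM), a ratio of 0.20 [0.17, 0.23]. *Il17rc* had 327 and 165 counts (4.12 and 2.16 CPM), a ratio of -0.93 [-1.21, -0.66]. *Il17a*, *Il17f* and *Il22* had 0 counts in both bulk libraries, which allows up to 0.0378 and 0.0393 CPM, and *Cd3e* was also at 0 while *Trac* had 14 and 6 counts. The neutrophil gene *S100a8* had 35.3 and 44.3 CPM there, young first. Of 2 other neutrophil genes, *Ly6g* had 0.78 and 0.69 CPM and *Cxcr2* 0.39 and 0.50 CPM, and the intervals of both age ratios spanned 0. The part of neutrophil RNA in the *Il17ra* values was not tested. In a bulk library fewer cells of a type and less RNA per cell cannot be told apart, and bulk and single-cell CPM are different scales.

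*Il17rc*, the partner of *Il17ra* for IL-17A and IL-17F, was close to the limit of detection. T cells had 5 and 7 UMIs on day 6 and 19 and 26 on day 10, and the intervals of both age ratios spanned 0. A difference between ages was not detectable at this depth. Among the related receptors, *Il17re* had 12.3 and 11.5 CPM in T cells on day 6 and 25 and 32.0 CPM on day 10, young first. *Il10rb*, a subunit of the IL-22 receptor, had 30.5 and 28.6 CPM in the same cells on day 6 and 27.9 and 28.2 CPM on day 10. *Il22ra1*, the other IL-22 receptor subunit, had 0 counts in both bulk libraries of naive microglia and was not among the genes of the single-cell table.

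The list of genes tied to the induction of IL-17 and IL-22 in T cells was mixed in direction on day 6. Of 17 genes of that list with at least 10 UMIs, 4 were at least 2-fold higher in middle-aged T cells and 2 lower, beside 2.93% and 3.39% of all genes tested, with a median of 0.29 beside -0.08 over all genes. The 4 were *Il21* (2.25), *Csf2* (2.04), *Ifng* (1.77) and the transcription factor *Irf4* (1.11). *Csf2* and *Ifng* are products of helper T cells and do not themselves induce IL-17. *Foxp3* (-1.46), which marks regulatory T cells, and *Il6st* (-1.09), the signalling subunit for IL-6, were the 2 lower genes. On day 10, 0 of 18 were higher and 1 lower, the chemokine *Ccl20* (-1.82), beside 2.87% and 1.68% of all genes, with a median of 0.20 beside 0.07. From day 6 to day 10 *Ccr6* was higher in both ages, with ratios of 1.75 (young) and 2.16 (middle-aged).

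Genes of gamma delta and innate lymphocytes that passed 2-fold on day 6 were lower in middle-aged mice. Of 12 such genes, 0 were 2-fold higher and 4 lower in middle-aged T cells on day 6, beside 2.93% higher and 3.39% lower of all genes, with a median of -0.60. They were the NK cell receptor *Ncr1*, the transcription factor *Zbtb16*, the kinase *Blk* and the gamma chain constant gene *Tcrg-C1*. On day 10, 1 of 13 was higher and 1 lower, beside 2.87% and 1.68% of all genes, with a median of 0.42. Of 9 alpha beta T cell genes, 0 passed 2-fold on either day, with medians of -0.16 and -0.03.

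Downstream of the receptor, no signalling gene passed 2-fold between the ages in T cells, and response genes did in opposite directions on the 2 days. Of the genes of IL-17 receptor signalling, among them *Traf3ip2* and *Nfkbiz*, 0 of 19 were called on either day, with medians of -0.07 and 0.11. Of IL-17 response genes in the same cells, 6 of 11 were higher on day 6, beside 2.93% of all genes, with a median of 1.06, among them *Il6* (4.09 [2.12, 7.19], from 33 and 2 UMIs), the acute phase gene *Saa3* (1.70) and *S100a8* (1.69). On day 10, 4 of 12 were lower, beside 1.68% of all genes, with a median of -0.45, among them *Lcn2* (-2.41) and *S100a9* (-1.97). *S100a8*, *S100a9* and *Lcn2* are also neutrophil genes. The summed level of 10 neutrophil markers in T cells was 94.3 and 240 CPM on day 6 and 487 and 126 CPM on day 10, young first, with none at 0. It differed between the ages in the same direction as the response genes on both days, and its part in their values was not tested.

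In myeloid cells, response genes were mixed in direction. In monocyte/macrophage-like cluster 1 on day 6, 2 of 12 were 2-fold higher in middle-aged mice, *Saa3* (2.19) and the neutrophil chemokine *Cxcl3* (1.09), and 0 were lower, beside 3.39% of genes higher and 5.87% lower. On day 10, *Cxcl1* (1.19) was higher and 4 of 13 were lower, among them *S100a9* (-1.54) and *Lcn2* (-1.46), beside 2.72% of genes higher and 1.86% lower. In microglia-like cluster 10, *Saa3* (2.98) and *Cxcl1* (1.57) were higher on day 6 and 3 of 12 were lower, among them *S100a8* (-1.82), beside 4.17% of genes higher and 4.78% lower. On day 10, *Cxcl3* (4.82 [2.21, 10.2], 26 and 1 UMIs), *Cxcl1* (2.93 [1.18, 5.32], 21 and 3) and *Il6* (2.12 [-0.21, 5.39], 8 and 2) were higher there on few UMIs and 0 of 12 were lower, beside 2.5% of genes higher and 2.39% lower. The medians of the list were 0.20 and 0.07 in cluster 1 and 0.15 and -0.16 in cluster 10, beside -0.13, 0.02, -0.05 and 0.00 over all genes tested. Of the signalling genes, 0 of 19 passed 2-fold in cluster 1 on either day, and 1 of 17 did in cluster 10 on day 6.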

How the data were processed

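For the 4 single-cell libraries the authors aligned 10x reads to mm10 with Cell Ranger 3.1.0, filtered cells and genes, and clustered the cells. The deposited values are raw UMI counts that were not normalized, beside the cluster of each cell. For the 2 bulk libraries the authors deposited raw read counts, made without regard to strand. UMIs were summed by cluster and library and divided by their total (CPM). A gene was called past 2-fold when it had at least 10 UMIs in the 2 libraries together. Cell types were named from marker genes, and the deposited clusters were not computed again. Genes named beyond the 5 came from fixed lists (counts in each direction, and genes with the most UMIs or the largest ratio), the 5 most correlated genes, and the 10 genes with the highest ratio of shares. The members and lists were chosen with earlier results of these data known. Depth was equalized by thinning cells to 2000 UMIs. The alternatives were other scalings, the mean of per-cell CPM, leaving out leading cells or possible doublets (cells with at least 2 UMIs of another lineage's markers, or 5 of neutrophil markers), all cells, and other minimum counts. The ratios and intervals were tested on simulated counts, drawn independently for each gene and library. UMIs gathered in few cells were not simulated, so the test cannot show how the intervals fare there. Python 3.11.15, numpy 2.4.6, scipy 1.17.1, pandas 2.3.3, matplotlib 3.10.9, R 4.3.3 and edgeR 4.0.16 (for TMM factors) were used. Some results of the lists and motifs are not reported here.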

Additional observations from a re-analysis of the deposited data

Results flagged for a closer look

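The log2 ratio of day 10 over day 6 of *Il17a* in the T cell-like cluster had opposite directions in the ages, at 1.38 [1.27, 1.49] in young recipients but -0.90 [-0.95, -0.84] in middle-aged recipients. The ratio of middle-aged over young *Il17f* in the same cluster was 2.73 [2.46, 3.0] on day 6 and -1.36 [-1.72, -1.01] on day 10. *Il17ra* in monocyte/macrophage-like cluster 1 was at -0.21 [-0.33, -0.08] from day 6 to day 10 in young mice and at 0.15 [0.02, 0.29] in middle-aged mice. Each contrast compares 2 libraries and the intervals cover counting error only, so these 3 differences between contrasts were not tested.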

How the results depend on the processing

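Of 209 values recomputed under alternatives, 160 stayed the same, 49 moved, and 200 kept their direction. Staying the same meant lying inside the counting interval of the reported value. For the 12 percents of genes past 2-fold, which have no interval, it meant lying within a set fold. These 12 and the 10 co-detection percents cannot be negative, so their direction could not change. The cause of the moves was not tested. No paired analysis was possible because each age and day has 1 library. Sums rest on few cells, and depth limits *Il17rc* and the co-detection of sparse genes. Ratios of middle-aged over young in T cells are given first. With the mean of per-cell CPM, *Il17a* was at 2.22 on day 6 and 0.22 on day 10, *Il17f* at -0.79 on day 10, and *Il22* at 3.71 and 1.80. With TMM and with median of ratios factors, *Il17a* was at 0.25 and 0.26 on day 10. Over all cells *Il17a* was at 2.17 and 0.83 and *Il17f* at 1.66 and -0.046. Without possible doublets, which left 1027 to 2215 T cells per library, *Il22* was at 3.63 and 3.19. This took out 169 of 1307 young and 110 of 1137 middle-aged T cells on day 6, and 551 of 1923 and 248 of 2463 on day 10. It thus fell most on the young library of day 10, where 138 of 195 *Il17a* cells were left. Without the 10 leading cells of each library, *Il17a* was at 3.35 and 0.64, *Il17f* at 4.98 (183 and 6 UMIs left) and -0.39 (29 and 34), and *Il22* at least 3.26 on day 6 (28 and 0) and at 6.27 on day 10 (86 and 1). For *Il22* the young libraries had only 10 and 11 positive cells, against 23 and 28 in middle-aged mice. On day 6 *Il17f* had 16 against 39, and *Il17a* 43 against 125. Taking out 10 cells thus removed a larger part of the young positive cells, and the larger ratios cannot serve as a check. Without the leading cell alone, an alternative chosen after seeing the data, *Il17f* was at 3.18 on day 6 and *Il22* at 2.49 on day 10.

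For day 10 over day 6, *Il17a* in young mice was at 1.59 with TMM, 1.56 with median of ratios, 1.19 without possible doublets and 1.92 without the leading cell. In middle-aged mice *Il17a* was at -0.55 by the mean of per-cell CPM, -0.99 without possible doublets and -0.39 without the leading cell. *Il17f* in young mice was at -0.81 without possible doublets and 0.10 without the leading cell, and in middle-aged mice at -3.59 by the mean of per-cell CPM, where *Il22* was at -0.62 in young and -2.52 in middle-aged mice. For *Il17ra*, the ratio of middle-aged over young was -0.43 in cluster 0 on day 6 by median of ratios, and -0.15 on both days over all cells by the mean of per-cell CPM. Without possible doublets it was -0.15 and 0.10 in cluster 1, -0.63 and 3.48 in cluster 7 (33 and 1 UMIs left on day 10) and 2.58 in cluster 8 on day 10 (8 and 1 left). In cluster 1 this left 345 of 2336 middle-aged and 204 of 2166 young cells on day 10, with 80 and 38 *Il17ra* UMIs. On day 6 it left 1203 of 2760 and 1249 of 2383 cells there. This alternative was not run for clusters 0, 3, 4, 6 and 10 and for all cells, whose own markers it uses. With at least 2 UMIs per cell, the log2 ratio of *Il17ra* shares on day 6 was -0.46. Thinned, 8.70% of *Il17a* cells held *Il17f*. The percent of genes past 2-fold was 10.8 and 8.63 on days 6 and 10 with no minimum count, and 1.48 and 0.394 with at least 100 UMIs, where the day comparisons gave 6.32 in young and 4.98 in middle-aged mice.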
